A study of Homo sapiens with 14 samples.

Results

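The genes described here are 38 interferon-stimulated genes outside the IFIT family, chosen by name as genes known to be induced by interferons, out of 18129 genes on the arrays. The list was drawn up with earlier results of these data known. Its counts beside the shares over all genes are therefore descriptions and no independent test. For each gene, of the probe sets assigned to it alone, the brightest on average over the 14 arrays was used. Such a probe set was found for 36 of the 38, and not for USP18 and STAT2. The cells were PANC-1, a long-established line from a human pancreatic carcinoma, and every group was kept for 24 h in 1% serum before 48 h of treatment. The groups were TGFb1 at 5 ng/ml with acriflavine at 2.5 µM (3 arrays), TGFb1 at 5 ng/ml with sodium valproate at 2 mM (3 arrays), TGFb1 at 5 ng/ml alone (4 arrays) and control cells without any of these agents (4 arrays). The labels call the replicates biological, and all of them come from 1 cell line. Both drug groups also received TGFb1, and cells given acriflavine without TGFb1 were not analysed here. In what follows, "acriflavine arrays" and "valproate arrays" are those of the groups that received TGFb1 together with the drug.

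Interferons are secreted proteins that bind receptors on the cell surface and, through JAK kinases, activate transcription factors that join IRF9 and enter the nucleus. There they bind a short DNA element, the interferon-stimulated response element, and switch on genes whose products sense viral RNA, block viral entry, degrade viral RNA or attach the ubiquitin-like protein ISG15 to other proteins. Tumour cells often keep some of these genes on without added interferon. TGFb1 is a cytokine known to drive epithelial cells towards mesenchymal traits, acriflavine is a blend of DNA-binding acridine dyes, and valproate blocks histone deacetylases.

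All values are log2 intensities, and a difference is one group mean minus the other on the log2 scale ± the standard error (SE) of the linear model (limma). A gene rose or fell where its p, adjusted by the Benjamini-Hochberg method over the 10877 genes tested, was under 0.05. Of the 36 measured genes, 28 were bright enough to be tested. OAS3, HERC6, IFI44, IFI44L, RSAD2, CMPK2, SAMD9L and EPSTI1 had means below the limit of 6.88 and are described separately. TRIM22, with a mean of 6.98, lay just inside the limit, and IFI44, with a mean of 6.70, just outside it. The limit is on the mean over all arrays. MX1, with a mean of 7.51, lay below it in TGFb1 (6.28) and valproate (6.35) arrays and above it in acriflavine (9.04) and control (8.46) arrays. Levels are those of whole cultures, in which fewer cells expressing a gene and less RNA per cell cannot be told apart, and precision is limited by how many arrays each group has.

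Medians of the arrays were 7.16 to 7.21. Replicate 4 of the TGFb1 group and replicate 4 of the control group were profiled in addition to the other 3 and stood apart from their groups. Deviations from the group mean had an SD over genes of 0.375 in TGFb1 replicate 4 and 0.256 in TGFb1 replicate 2, while control replicate 4 had 0.250 and the remaining 11 arrays 0.0665 to 0.160. In control replicate 4 the median of the 28 tested genes lay 0.52 above their control mean, against -0.27 to -0.03 in control replicates 1 to 3, so counts without both replicates 4 are given beside the main ones. The 5 epithelial markers KRT7, KRT8, KRT18, KRT19 and EPCAM had group means between 8.87 and 14.1, and their mean over the list was 12.2 to 12.3 in acriflavine arrays, 11.6 to 11.8 in valproate arrays, 11.2 to 11.5 in TGFb1 arrays and 12.0 to 12.3 in control arrays. The pan-leukocyte marker PTPRC had group means of 3.73 to 3.83, near the lowest value in the table (2.97). Of the leukocyte markers CD68, a lysosomal protein not confined to leukocytes, was bright and differed by -0.76 for acriflavine and 0.45 for valproate against TGFb1 (adjusted p = 0.000505 and 0.0228). In a fit without a brightness limit CD14 did not pass for acriflavine (0.37) and rose for valproate (0.69, adjusted p = 0.00746 by limma). PTPRC and CD3E passed for neither drug. The plasmacytoid dendritic cell marker IL3RA rose for valproate (0.31, adjusted p = 0.0414 by limma), while CLEC4C did not pass (0.23). The mean of the 4 measured leukocyte markers lay between 5.69 and 6.15 over all arrays, that of the 2 measured plasmacytoid dendritic cell markers between 4.75 and 5.33 and that of the 3 endothelial markers between 5.92 and 6.13. The mean of the 3 fibroblast markers was 5.40 to 5.80 in valproate arrays and 4.48 to 4.75 in all others. Of the fibroblast markers LUM differed by 2.63 for valproate against TGFb1 in a fit without a brightness limit, while DCN (0.06) and PDGFRB (0.04) did not pass. The part of these markers in the results below was not tested.

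Promoter windows from RefSeq (build GRCh38.p14), which run from 250 bases before to 50 bases after each annotated start, were available for 31 of the 38 genes. They were searched on both strands for the core of the interferon-stimulated response element, that is GAAA, any pair of bases and GAAA again. The core was found for 20 of these 31 genes (64.5%), against 1195 of all 27305 genes with a window (4.38%). A match describes the letters in the window and is not evidence of binding. Windows of 30 bases around a match are shown for 6 genes on which the results below turn. The bases of a single match are in capitals, and the core is read as TTTC, any pair of bases and TTTC where it lies on the opposite strand. In the ISG15, HERC5 and BST2 windows a further match overlaps the marked one, and its remaining bases are in lower case:

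MX1 (chr21:41431844-41431873, plus strand): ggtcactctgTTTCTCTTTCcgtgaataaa

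ISG15 (chr1:1013374-1013403, plus strand): catgcctcggGAAAGGGAAAccgaaactga

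HERC5 (chr4:88456984-88457013, plus strand): ctcattacagTTTCCTTTTCcttttcgatt

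BST2 (chr19:17405741-17405770, minus strand): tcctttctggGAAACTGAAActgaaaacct

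SAMD9 (chr7:93118096-93118125, minus strand): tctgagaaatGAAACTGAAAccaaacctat

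EPSTI1 (chr13:42992272-42992301, minus strand): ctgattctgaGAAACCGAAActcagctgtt

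These 6 windows hold the same core letters, and the genes differed in their levels: MX1, HERC5 and EPSTI1 are genes with large differences between acriflavine and TGFb1 arrays, while BST2 and SAMD9 had their highest mean levels in valproate arrays. Of the 18 genes that rose in acriflavine over TGFb1 arrays and had a window, 14 held the response element core, and of the 4 that did not pass, 1 did. Of the 17 that fell in TGFb1 below control arrays 12 held it, and of the 5 that did not pass, 3 did. In valproate against TGFb1 arrays 3 of the 4 that rose, the 1 that fell and 11 of the 17 that did not pass held it. MX2 and IRF7, which fell in acriflavine below TGFb1 arrays, had no window. MX1 had 3 annotated starts, 2 of them with a match, and the match shown lies 196 bases before 1 of these starts. The arrays do not show which start was used.

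**Figure D1:**
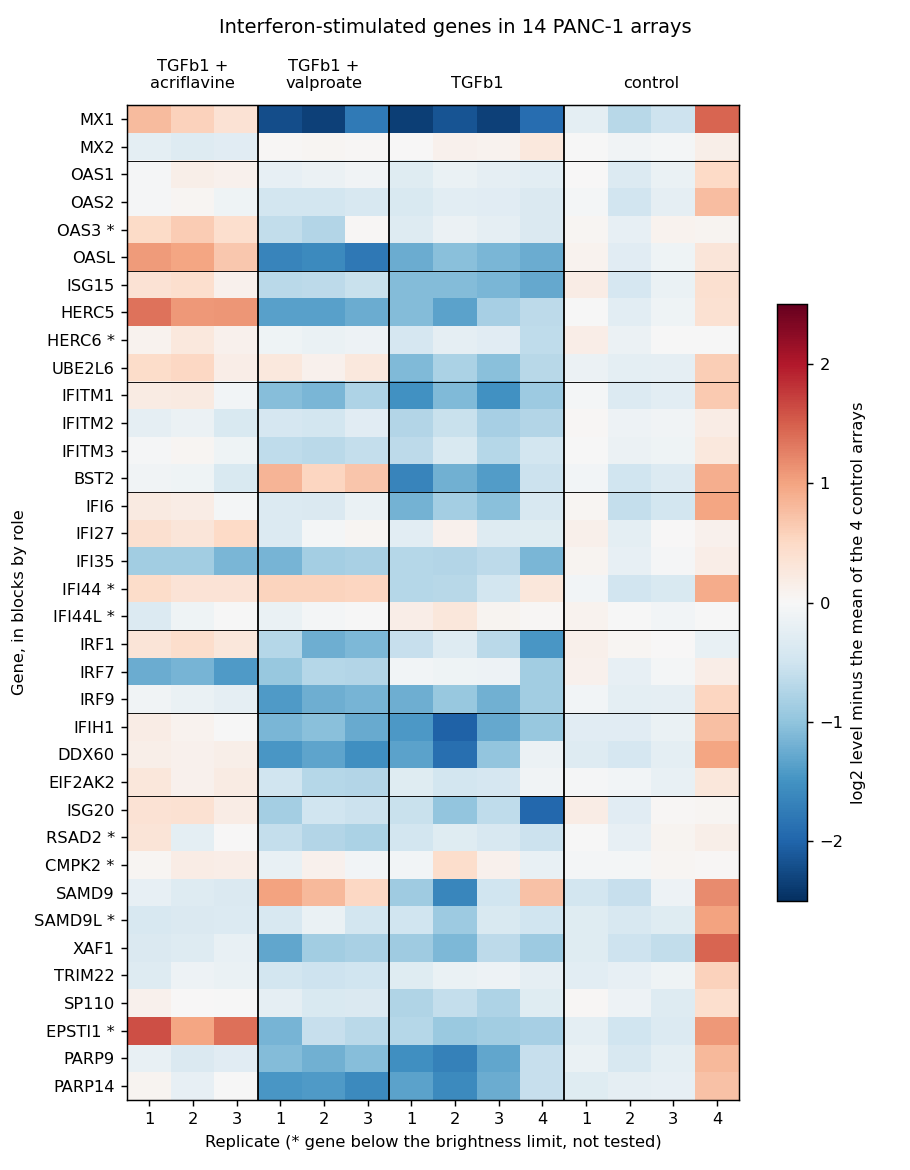
Level of each measured gene in each array minus the gene's mean over the control arrays (colour, log2 units), with genes in rows by role and arrays in columns by group, and asterisks at the genes below the brightness limit. Most rows are lower in TGFb1 and valproate arrays than in acriflavine and control arrays, and control replicate 4 is the highest control array for many genes.

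TGFb1 alone was first set against control, which gives the effect of the cytokine that both drug groups also received. Of the 28 tested genes 19 fell, 0 rose and 9 did not pass by limma, and 0 were higher at an unadjusted p under 0.05 too. Over all 10877 genes 9.97% fell and 8.39% rose. The median difference was -0.88 for the 28 genes and 0.00 for all genes tested, and 11 of the 19 fell at least 2-fold. The share of all genes at 2-fold was not counted, here or in the comparisons below. For 17 of the 28 genes every TGFb1 array lay below every control array, which held for 9.55% of all genes. Without both replicates 4, 21 fell and 0 rose, where 16.3% and 12.7% of all genes did. Within replicates 1 to 3, 27 of the 28 genes were lower in TGFb1 cells with a median of -0.67, and within replicate 4 alone 27 of 28 were, with a median of -1.28. Over all genes tested these medians were -0.001 and 0.006, and the share that was lower was not counted. Within replicate 4 a single TGFb1 array is set against control replicate 4, the control array in which the median of these genes was highest.

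MX1, a GTPase that blocks early steps of RNA virus replication, stood at 6.12, 6.30, 6.12 and 6.56 in TGFb1 arrays, against 8.21, 7.78, 7.94 and 9.91 in control arrays. It fell, with a difference of -2.18 ± 0.353 (adjusted p = 0.000645). The groups did not overlap, and control replicate 4 lay far above the other control arrays. MX2, its neighbour on chromosome 21, a GTPase known to restrict retroviruses, did not pass, at 0.12 ± 0.0728 (adjusted p = 0.302).

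The OAS proteins make oligoadenylates that activate the RNA-degrading enzyme RNase L. OASL, a relative without that activity that promotes RNA sensing, stood at 8.42, 8.62, 8.52 and 8.42 in TGFb1 arrays, against 9.74, 9.37, 9.56 and 9.96 in control arrays. Its groups did not overlap, and it fell, with a difference of -1.16 ± 0.122 (adjusted p = 1.52e-05). OAS1 and OAS2 did not pass, at -0.24 ± 0.135 (adjusted p = 0.254) and -0.32 ± 0.189 (adjusted p = 0.272). All 3 tested genes of the ISG15 system fell. ISG15 itself differed by -1.14 ± 0.143 (adjusted p = 7.43e-05), the ligase HERC5, which attaches it, by -0.98 ± 0.151 (adjusted p = 0.000446), and the conjugating enzyme UBE2L6 by -0.91 ± 0.171 (adjusted p = 0.00204). UBE2L6 stood at 9.14, 9.44, 9.19 and 9.54 in TGFb1 arrays, against 10.09, 10.00, 10.01 and 10.86 in control arrays, with control replicate 4 well above the other control arrays.

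The IFITM proteins sit in membranes and hinder the fusion of viruses with the cell, and BST2 (tetherin) holds budding virus particles at the surface. All 4 fell. IFITM1 stood at 10.69, 11.10, 10.68 and 11.28 in TGFb1 arrays, against 12.14, 11.86, 11.92 and 12.86 in control arrays. The groups were apart, at -1.26 ± 0.201 (adjusted p = 0.000604), with differences of -0.72 for IFITM2, -0.55 for IFITM3 and -1.20 for BST2. IFITM1, IFITM2 and IFITM3 lie side by side on chromosome 11 and are similar in sequence, and their probe sets are of a type that may bind related transcripts, so their separate values are uncertain. The only probe set of OASL and the one used for XAF1 are of this type too. Of the tested IFI genes, IFI6, a mitochondrial and endoplasmic reticulum protein that limits cell death, differed by -0.87 ± 0.272 (adjusted p = 0.0404) and IFI35 by -0.81 ± 0.126 (adjusted p = 0.000479). IFI35 stood at 10.41, 10.40, 10.46 and 9.97 in TGFb1 arrays, against 11.20, 10.91, 11.09 and 11.29 in control arrays, with TGFb1 replicate 4 the lowest. IFI27 did not pass, at -0.20 ± 0.120 (adjusted p = 0.295). The fall of IFI6 passed in the fit over all arrays and missed the threshold in 11 of the 14 fits that left out 1 array, with adjusted p of up to 0.0998.

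Among the transcription factors, IRF9, the DNA-binding partner of STAT2, differed by -1.06 ± 0.153 (adjusted p = 0.000252) and IRF1, an activator induced by interferon gamma, by -0.76 ± 0.191 (adjusted p = 0.0137). IRF7, the factor known for switching on the interferon alpha genes, did not pass, at -0.29 ± 0.156 (adjusted p = 0.221). IFIH1, the sensor of long double-stranded RNA also called MDA5, stood at 8.35, 7.75, 8.49 and 8.82 in TGFb1 arrays, against 9.48, 9.48, 9.61 and 10.52 in control arrays. Every TGFb1 array was below every control array, and the difference was -1.42 ± 0.233 (adjusted p = 0.000737). The helicase DDX60 differed by -1.09 ± 0.332 (adjusted p = 0.0359), a call lost in 7 of the 14 fits that left out 1 array, with adjusted p of up to 0.102. EIF2AK2, the kinase PKR that stops translation on binding double-stranded RNA, did not pass, at -0.32 ± 0.108 (adjusted p = 0.0589).

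Of the other tested effectors 4 of 7 fell. PARP9 stood at 7.66, 7.50, 7.90 and 8.62 in TGFb1 arrays, against 9.03, 8.80, 8.95 and 10.01 in control arrays. It and PARP14, members of the ADP-ribosyltransferase family that lie near each other on chromosome 3, differed by -1.28 ± 0.253 (adjusted p = 0.00293) and -1.19 ± 0.228 (adjusted p = 0.00238), and the PARP9 groups did not overlap. ISG20, an exonuclease that degrades viral RNA, differed by -1.04 and the nuclear body protein SP110 by -0.61. The fall of SP110 was -0.35 and did not pass with the mean of all its probe sets (adjusted p = 0.151 by limma). In a fit of TGFb1 and control arrays alone BST2, IFI6, IRF1, DDX60, ISG20 and SP110 did not pass, with adjusted p of 0.0514, 0.142, 0.0601, 0.136, 0.0509 and 0.0563 by limma. SAMD9, an antiviral factor known for its action against poxviruses, the apoptosis-promoting XAF1 and the ubiquitin ligase TRIM22 did not pass, at -0.57, -0.89 and -0.20. Fitted separately, the 7 XAF1 probe sets differed by -1.51 to -0.82 and the 6 of TRIM22 by -0.85 to -0.20. XAF1 was at -0.41 without control replicate 4. With the replicate number as a block, EIF2AK2, SAMD9 and XAF1 also passed, with adjusted p of 0.00270, 0.0309 and 0.0295 by limma, and 22 of 28 genes fell, against 15.8% of all genes.

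**Figure D2:**
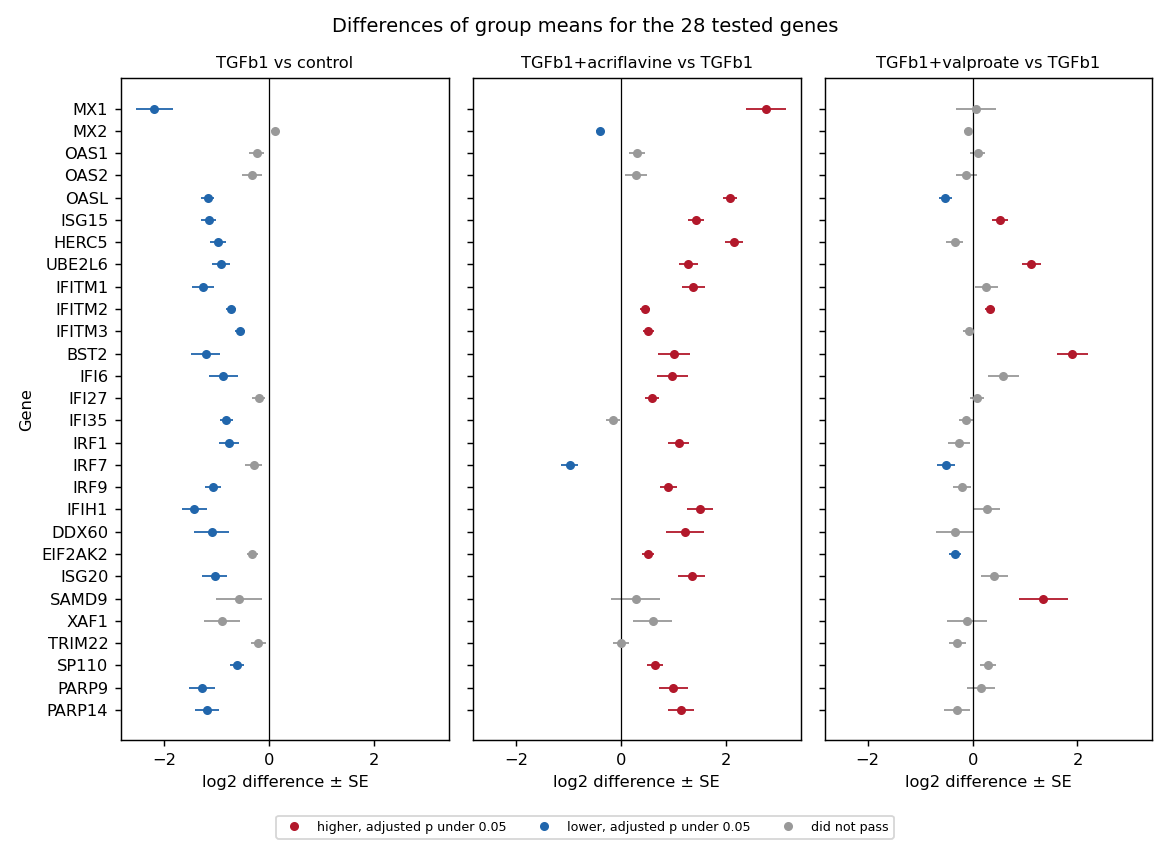
Differences of group means (points, log2 units) with SE (bars) for the 28 tested genes, for TGFb1 against control, acriflavine against TGFb1 and valproate against TGFb1. Points are red where the gene rose, blue where it fell and grey where it did not pass: 19 genes are blue in the first panel, 20 red and 2 blue in the second, and 5 red and 3 blue in the third.

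Acriflavine given with TGFb1 was set against TGFb1 alone, to show what the drug changed in TGFb1-treated cells. Of the 28 genes 20 rose, 2 fell and 6 did not pass. In the same comparison 24.5% of all genes rose and 19.1% fell. The median difference was 0.94 for the 28 genes and 0.03 for all genes tested, and 13 genes rose at least 2-fold. For 23 genes every acriflavine array lay above every TGFb1 array, which held for 24.8% of all genes. Without both replicates 4, 24 rose and 2 fell, where 32.5% and 25.3% of all genes did. Since the TGFb1 arrays enter this comparison and the one with control, both comparisons share those samples, and their differences are given side by side without a test of one against the other.

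MX1 stood at 9.26, 9.03 and 8.83 in acriflavine arrays, above all 4 TGFb1 arrays, which lay between 6.12 and 6.56. The difference was 2.76 ± 0.381 (adjusted p = 6.16e-05). MX2 moved the other way, at 9.40, 9.32 and 9.35 in acriflavine arrays, against 9.64, 9.75, 9.71 and 9.90 in TGFb1 arrays. Its acriflavine arrays were all below its TGFb1 arrays, by a small margin, and it fell with -0.39 ± 0.0786 (adjusted p = 0.00112).

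OASL stood at 10.73, 10.65 and 10.34 in acriflavine arrays, more than a log2 unit above its highest TGFb1 array at 8.62. The difference was 2.08 ± 0.131 (adjusted p = 7.20e-08). OAS1 and OAS2 did not pass at their brightest probe sets, with 0.31 ± 0.145 (adjusted p = 0.101) and 0.29 ± 0.204 (adjusted p = 0.280), although their acriflavine arrays lay above their TGFb1 arrays.

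HERC5 stood at 9.81, 9.54 and 9.56 in acriflavine arrays, against 7.38, 7.11, 7.62 and 7.79 in TGFb1 arrays. The groups were well apart, and HERC5 rose with 2.16 ± 0.163 (adjusted p = 3.25e-07). ISG15 stood at 11.58, 11.64 and 11.32 in acriflavine arrays, against 10.14, 10.14, 10.09 and 9.95 in TGFb1 arrays, again without overlap, and rose with 1.43 ± 0.154 (adjusted p = 7.49e-06). UBE2L6 rose with 1.29 ± 0.184 (adjusted p = 8.47e-05). All 4 IFITM and tetherin genes rose as well, IFITM1 with 1.38 ± 0.217 (adjusted p = 0.000187), IFITM2 with 0.46, IFITM3 with 0.52 and BST2 with 1.02.

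Of the IFI genes IFI6 rose with 0.98 ± 0.294 (adjusted p = 0.0147), a call lost without acriflavine replicate 1 (adjusted p = 0.0539 by limma), and IFI27, a small mitochondrial protein, with 0.60 ± 0.130 (adjusted p = 0.00210). IFI35 did not pass, at -0.14 ± 0.136 (adjusted p = 0.422). IRF1 stood at 11.17, 11.28 and 11.12 in acriflavine arrays, against 10.27, 10.52, 10.17 and 9.40 in TGFb1 arrays. Its groups did not overlap, and it rose with 1.10 ± 0.206 (adjusted p = 0.000694), as did IRF9 with 0.90 ± 0.165 (adjusted p = 0.000585). IRF7 stood at 8.80, 8.88 and 8.63 in acriflavine arrays, against 9.97, 9.93, 9.91 and 9.17 in TGFb1 arrays. All its acriflavine arrays were below all its TGFb1 arrays, and it fell with -0.97 ± 0.168 (adjusted p = 0.000380).

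IFIH1 stood at 9.95, 9.87 and 9.76 in acriflavine arrays, above its TGFb1 arrays at 7.75 to 8.82, and rose with 1.51 ± 0.252 (adjusted p = 0.000290). DDX60 rose with 1.22 ± 0.358 (adjusted p = 0.0132) and EIF2AK2 with 0.52 ± 0.117 (adjusted p = 0.00269), so that all 3 tested sensor and kinase genes rose. Of the other effectors ISG20, PARP14, PARP9 and SP110 rose, with differences of 1.35, 1.14, 1.002 and 0.65. With the mean of all probe sets of a gene SP110 lost its call at 0.29 (adjusted p = 0.189 by limma), while PARP9 at 0.59 and IFIH1 at 0.76 still passed. SAMD9, XAF1 and TRIM22 did not pass, at 0.28, 0.61 and 0.00. Fitted separately, the 7 XAF1 probe sets differed by 0.61 to 1.41 and the 6 of TRIM22 by 0.00 to 0.75. The probe set used differed least in both genes, and every other TRIM22 probe set lay below the brightness limit. SAMD9 was at 0.72 without TGFb1 replicate 4 (adjusted p = 0.126 by limma). SAMD9 and XAF1 rose without both replicates 4, with the replicate block and with a batch term for the replicates 4, and XAF1 also did under 4 other alternatives, among them the fit without control replicate 4 (adjusted p = 0.00249 by limma).

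**Figure D3:**
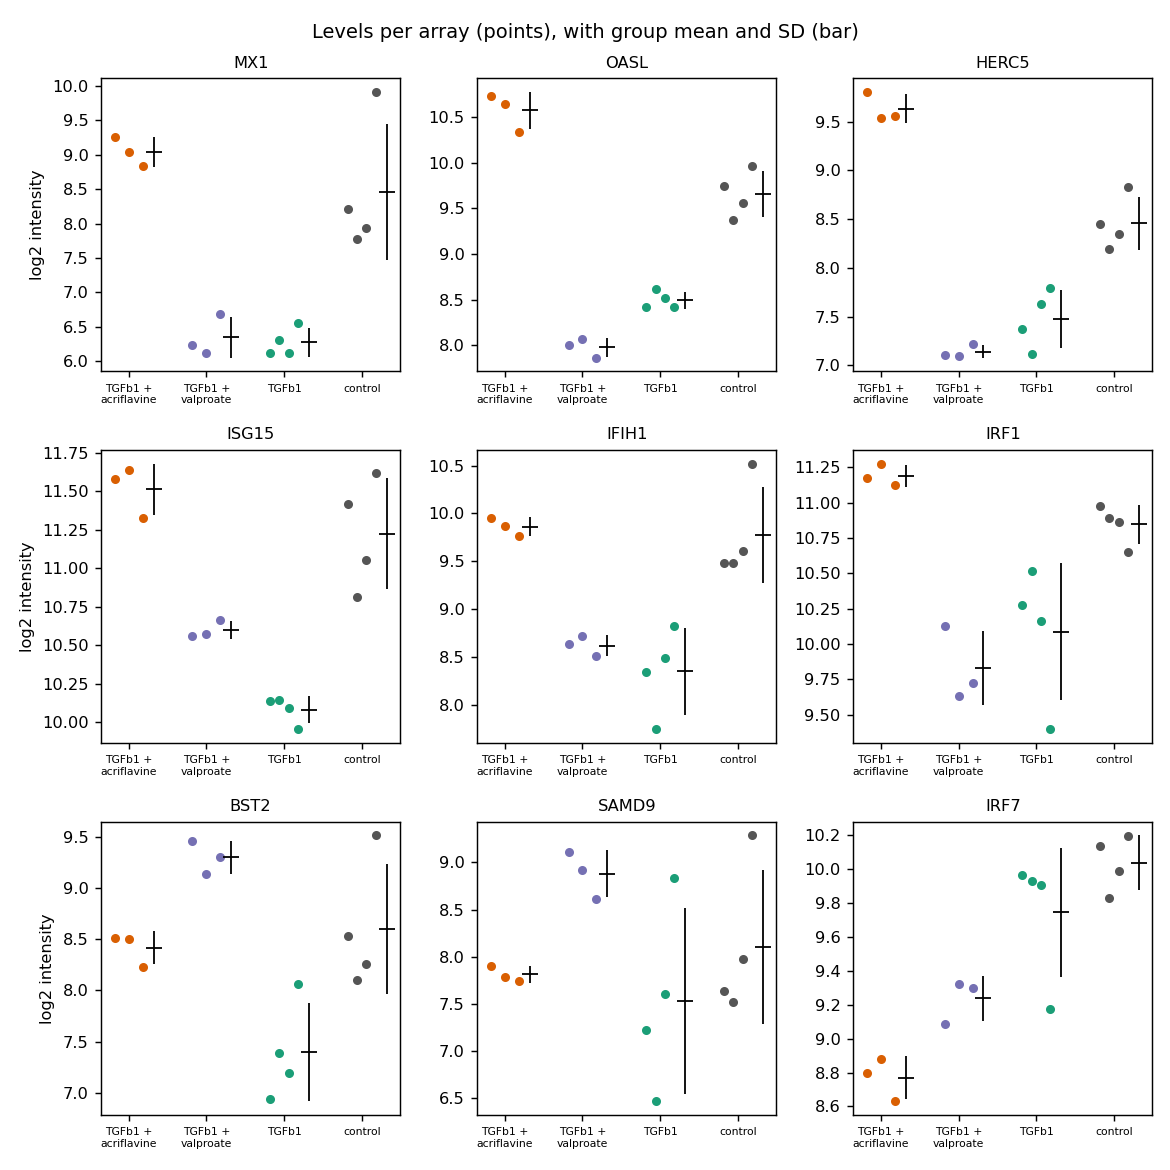
Level of 9 genes in each array (points, log2 intensity) by group, with the group mean and SD (bar). MX1, OASL, HERC5, ISG15, IFIH1 and IRF1 are high in acriflavine and control arrays and lower in TGFb1 arrays, BST2 and SAMD9 have their highest group mean in valproate arrays, and IRF7 has its lowest in acriflavine arrays.

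Valproate given with TGFb1 was set against TGFb1 alone in the same way. Of the 28 genes 5 rose, 3 fell and 20 did not pass, where 15.1% of all genes rose and 16.2% fell. The median difference was -0.00 for the 28 genes and -0.01 for all genes tested. Without both replicates 4, 10 rose and 5 fell, where 24.2% and 23.7% of all genes did. The number that rose was 2 without valproate replicate 3 and 3 without valproate replicate 2 or TGFb1 replicate 3, and the number that fell was 1 without valproate replicate 2, valproate replicate 3 or TGFb1 replicate 1.

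BST2 stood at 9.46, 9.14 and 9.30 in valproate arrays, against 6.94, 7.39, 7.20 and 8.06 in TGFb1 arrays. The groups were apart, and the difference of 1.90 ± 0.298 (adjusted p = 0.000290) was the largest of the 28. UBE2L6 stood at 10.50, 10.34 and 10.51 in valproate arrays, against 9.14, 9.44, 9.19 and 9.54 in TGFb1 arrays, and rose with 1.12 ± 0.184 (adjusted p = 0.000420), again without overlap. SAMD9 stood at 9.11, 8.92 and 8.61 in valproate arrays, against 7.22, 6.47, 7.60 and 8.83 in TGFb1 arrays. TGFb1 replicate 4 lay among the valproate arrays, and the rise of 1.35 ± 0.469 (adjusted p = 0.0416) was lost in 10 of the 14 fits that left out 1 array, with adjusted p of up to 0.128.

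ISG15 stood at 10.56, 10.57 and 10.66 in valproate arrays and rose with 0.52 ± 0.154 (adjusted p = 0.0203), less than with acriflavine, and IFITM2 rose with 0.33 ± 0.0972 (adjusted p = 0.0195). The call of ISG15 was lost without valproate replicate 2 or 3 (adjusted p of up to 0.0719), and that of IFITM2 without valproate replicate 3 or TGFb1 replicate 3 (adjusted p of up to 0.0931). OASL stood at 8.00, 8.07 and 7.86 in valproate arrays, below its TGFb1 arrays at 8.42 to 8.62, and fell with -0.52 ± 0.131 (adjusted p = 0.00823). IRF7 stood at 9.09, 9.32 and 9.30 in valproate arrays, where TGFb1 replicate 4 had 9.17 and the other TGFb1 arrays 9.91 to 9.97, and fell with -0.51 ± 0.168 (adjusted p = 0.0337). EIF2AK2 fell with -0.33 ± 0.117 (adjusted p = 0.0441). The fall of IRF7 was lost in 6 and that of EIF2AK2 in 9 of the 14 fits that left out 1 array. MX1 stood at 6.24, 6.13 and 6.69 in valproate arrays, overlapping its TGFb1 arrays, and did not pass, at 0.07 ± 0.381 (adjusted p = 0.916). Of the other roles, OAS1 (0.10), IFI27 (0.08), IFIH1 (0.27), HERC5 (-0.34) and IFITM1 (0.26) did not pass either. IFIH1 and IFITM1 rose without both replicates 4 (0.43 and 0.38, adjusted p = 0.0293 and 0.0308 by limma), with the replicate block and with the batch term, and HERC5 fell without TGFb1 replicate 2 (-0.46, adjusted p = 0.0348 by limma).

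The direct comparison of both drugs, each given with TGFb1, tested whether these responses differed. Of the 28 genes 15 were higher in acriflavine than in valproate arrays, 3 were lower and 10 did not pass. Of all genes 28.3% were higher and 23.3% lower. The median difference was 0.66 for the 28 genes and 0.04 for all genes tested, and 9 genes were at least 2-fold higher. Without both replicates 4, 21 were higher and 4 lower, where 34.9% and 29.6% of all genes were. MX1 differed by 2.69 ± 0.407 (adjusted p = 9.13e-05), OASL by 2.59 ± 0.140 (adjusted p = 1.69e-08) and HERC5 by 2.50 ± 0.174 (adjusted p = 1.03e-07), and the arrays of these 3 did not overlap. HERC5 had 7.11, 7.10 and 7.21 in valproate arrays.

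DDX60 had 9.11, 9.08 and 9.11 in acriflavine arrays, against 7.52, 7.64 and 7.43 in valproate arrays. The groups were apart, with 1.57 ± 0.383 (adjusted p = 0.00361). All 3 sensor and kinase genes were higher, IFIH1 with 1.24 and EIF2AK2 with 0.85, as were IRF1 with 1.36 ± 0.220 (adjusted p = 0.000157) and IRF9 with 1.11 ± 0.176 (adjusted p = 0.000142). With the mean of all its probe sets IFIH1 lost its call at 0.56 (adjusted p = 0.0591 by limma). BST2 had 8.51, 8.50 and 8.23 in acriflavine arrays, against 9.46, 9.14 and 9.30 in valproate arrays. It was lower in every acriflavine array, with -0.88 ± 0.318 (adjusted p = 0.0323), as were IRF7, with -0.47 ± 0.180 (adjusted p = 0.0431), and MX2, with -0.31 ± 0.0841 (adjusted p = 0.00676). The number of lower genes was 1 without acriflavine replicate 1, 2 or 3 or valproate replicate 3, and the calls of BST2 and IRF7 and the higher call of PARP9 were the ones lost, with adjusted p of up to 0.0974, 0.136 and 0.0760. UBE2L6 did not pass, at 0.17 ± 0.197 (adjusted p = 0.498), which does not show that both drugs left it at the same level.

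Both drug groups were also set against control, to show where TGFb1 with a drug left the genes relative to untreated cells. In acriflavine arrays 3 of the 28 genes were higher than in control arrays, 4 were lower and 21 did not pass, where 26.1% of all genes were higher and 21.6% lower. The median difference was 0.05 for the 28 genes and 0.04 for all genes. Without both replicates 4, 11 were higher and 3 lower, where 32.6% and 26.4% of all genes were, and without control replicate 4 alone 7 were higher. MX1 was at 0.58 ± 0.381 (adjusted p = 0.233) with all arrays and had an adjusted p of 0.000308 by limma without control replicate 4.

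HERC5 differed by 1.18 ± 0.163 (adjusted p = 5.97e-05), with 8.20 to 8.83 in control arrays, and OASL by 0.91 ± 0.131 (adjusted p = 8.27e-05). IFI27 had 7.99, 7.89 and 8.08 in acriflavine arrays, against 7.71, 7.33, 7.60 and 7.70 in control arrays. Its groups did not overlap, and it differed by 0.40 ± 0.130 (adjusted p = 0.0207), a call lost without acriflavine replicate 1, acriflavine replicate 3 or control replicate 2. IFI35 had 10.26, 10.26 and 9.99 in acriflavine arrays, against 11.20, 10.91, 11.09 and 11.29 in control arrays. It was lower in every acriflavine array, with -0.96 ± 0.136 (adjusted p = 7.61e-05). IRF7, with 9.83 to 10.19 in control arrays, was lower by the largest amount, with -1.27 ± 0.168 (adjusted p = 4.36e-05). MX2 and IFITM2 were lower with -0.28 ± 0.0786 (adjusted p = 0.0101) and -0.26 ± 0.0972 (adjusted p = 0.0413), and the IFITM2 call was lost in 6 of the 14 fits that left out 1 array. IFIH1 (0.09) and PARP14 (-0.05) were among the genes that did not pass.

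In valproate arrays 0 of the 28 genes were higher than in control arrays, 18 were lower and 10 did not pass by limma, where 16.9% of all genes were higher and 19.8% lower. At an unadjusted p under 0.05, 1 was higher. The median difference was -0.64 for the 28 genes and -0.02 for all genes, and 9 genes were at least 2-fold lower. Without both replicates 4, 3 were higher and 19 lower, where 23.6% and 27.3% of all genes were. Without control replicate 4 alone 3 were higher, and without TGFb1 replicate 4 alone 1 was. MX1 differed by -2.11 ± 0.381 (adjusted p = 0.000669), OASL by -1.68 ± 0.131 (adjusted p = 5.08e-07) and DDX60 by -1.44 ± 0.358 (adjusted p = 0.00628), with no overlap of the arrays.

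PARP14 had 9.57, 9.61 and 9.43 in valproate arrays, against 10.71, 10.80, 10.82 and 11.74 in control arrays. Every valproate array was lower, with -1.48 ± 0.246 (adjusted p = 0.000357). All 3 transcription factors were lower, IRF9 with -1.26, IRF1 with -1.02 and IRF7 with -0.80, and so were all 3 sensor and kinase genes. BST2 (0.70 ± 0.298, adjusted p = 0.0834), UBE2L6 (0.21 ± 0.184, adjusted p = 0.405) and SAMD9 (0.78 ± 0.469, adjusted p = 0.217) did not pass. These 3 genes were higher than in control arrays without control replicate 4 alone, with 1.001, 0.42 and 1.17 (adjusted p = 0.00373, 0.0160 and 0.0414 by limma), as they were without both replicates 4, with the replicate block and with the batch term. XAF1 was lower with -0.997 ± 0.372 (adjusted p = 0.04997), a call lost in 10 of the 14 fits that left out 1 array and with the replicate block (adjusted p = 0.0615). Fitted separately, its 7 probe sets differed by -2.17 to -0.997, and the probe set used differed least. Control replicate 4 had 9.78 for XAF1, against 7.70 to 8.02 in the other control arrays, and the difference without it was -0.51 (adjusted p = 0.0134 by limma). TRIM22 was lower with -0.49 ± 0.157 (adjusted p = 0.0247), a call lost in 3 of those fits, and by -0.30 without control replicate 4.

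**Figure D4:**
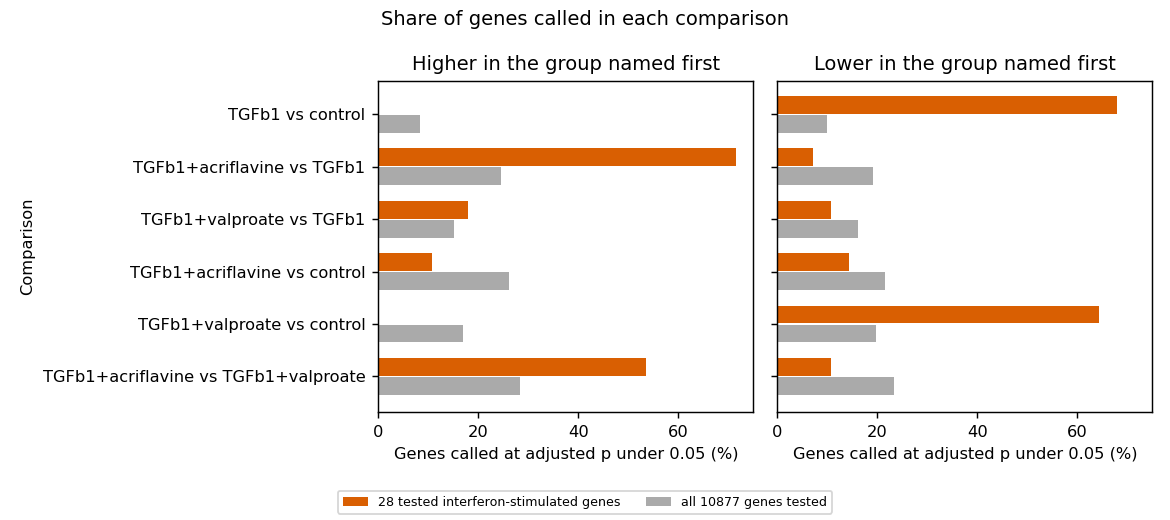
Share of genes called higher (left) and lower (right) at an adjusted p under 0.05 in each comparison (bars, percent), for the 28 tested interferon-stimulated genes and for all 10877 genes tested. The bars of the 28 genes are longer than those of all genes for TGFb1 against control (lower), acriflavine against TGFb1 (higher), valproate against control (lower) and acriflavine against valproate (higher), and slightly longer for valproate against TGFb1 (higher), where 5 of the 28 genes and 15.1% of all genes rose.

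The 8 genes below the brightness limit were tested in a fit without that limit. EPSTI1, whose promoter is shown above, had 8.31, 7.69 and 8.08 in acriflavine arrays, 5.53, 6.14 and 6.03 in valproate arrays, 5.99, 5.77, 5.83 and 5.87 in TGFb1 arrays, and 6.46, 6.21, 6.36 and 7.79 in control arrays. All acriflavine arrays lay above all valproate and TGFb1 arrays, and control replicate 4 stood above the other control arrays. Its group means were 8.02 in acriflavine arrays, 5.90 in valproate arrays, 5.87 in TGFb1 arrays and 6.70 in control arrays. In that fit acriflavine against TGFb1 gave 2.16 ± 0.295 (adjusted p = 6.49e-05) by limma. OAS3, HERC6 and RSAD2, which encodes the antiviral enzyme viperin, rose too, with 0.77, 0.55 and 0.45, and IFI44L fell with -0.28, where 16.4% of all genes rose and 12.3% fell in that fit. TGFb1 against control gave falls of HERC6 (-0.39) and RSAD2 (-0.42), where 6.05% of all genes fell. IFI44 rose in valproate over TGFb1 arrays, with 0.95 ± 0.286 (adjusted p = 0.0268), where 11.5% of all genes rose, while its neighbour IFI44L did not pass, at -0.20. For acriflavine against TGFb1 IFI44 did not pass, at 0.78 ± 0.286 (adjusted p = 0.0553 by limma), although every acriflavine array lay above every TGFb1 array. Its difference between acriflavine and valproate arrays, -0.17 ± 0.306, did not pass either (adjusted p = 0.727 by limma).

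The brightest probe set of a gene was not always the one that differed most. The 36 measured genes had 94 probe sets, and with each probe set fitted separately 47 fell in TGFb1 below control and 0 rose by limma (0 were higher at an unadjusted p under 0.05), 54 rose and 4 fell in acriflavine over TGFb1, and 9 rose and 3 fell in valproate over TGFb1. Over all 44898 probe sets assigned to 1 gene, 5.37% fell and 4.61% rose in the first, 14.2% rose and 13.1% fell in the second, and 9.91% rose and 9.93% fell in the third. CMPK2, a mitochondrial nucleotide kinase, lies next to RSAD2 on chromosome 2 and had a brightest probe set at 6.66 in acriflavine arrays, 6.47 in valproate arrays, 6.59 in TGFb1 arrays and 6.52 in control arrays. Another of its probe sets had 8.43, 8.31 and 8.07 in acriflavine arrays, 4.39, 4.24 and 3.85 in valproate arrays, 4.53, 4.77, 5.14 and 4.91 in TGFb1 arrays, and 5.90, 5.75, 5.86 and 7.95 in control arrays. This probe set was high in all acriflavine arrays, lower in all control arrays and lowest in valproate and TGFb1 arrays. It differed by -1.53 ± 0.369 for TGFb1 against control (adjusted p = 0.0156) and by 3.43 ± 0.398 for acriflavine against TGFb1 (adjusted p = 1.83e-05 by limma).

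OAS1 had a probe set that differed by -1.22 ± 0.354 for TGFb1 against control (adjusted p = 0.0416) and by 1.78 ± 0.383 for acriflavine against TGFb1 (adjusted p = 0.00282 by limma). For OAS2 such a probe set gave -1.64 ± 0.330 (adjusted p = 0.00500) and 1.73 ± 0.357 (adjusted p = 0.00206 by limma). For IFI27 the second probe set gave -0.64 ± 0.205 (adjusted p = 0.0670) and 1.75 ± 0.222 (adjusted p = 3.99e-05 by limma). What parts these probe sets from the ones used was not tested. They were singled out after their values were seen.

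**Figure D5:**
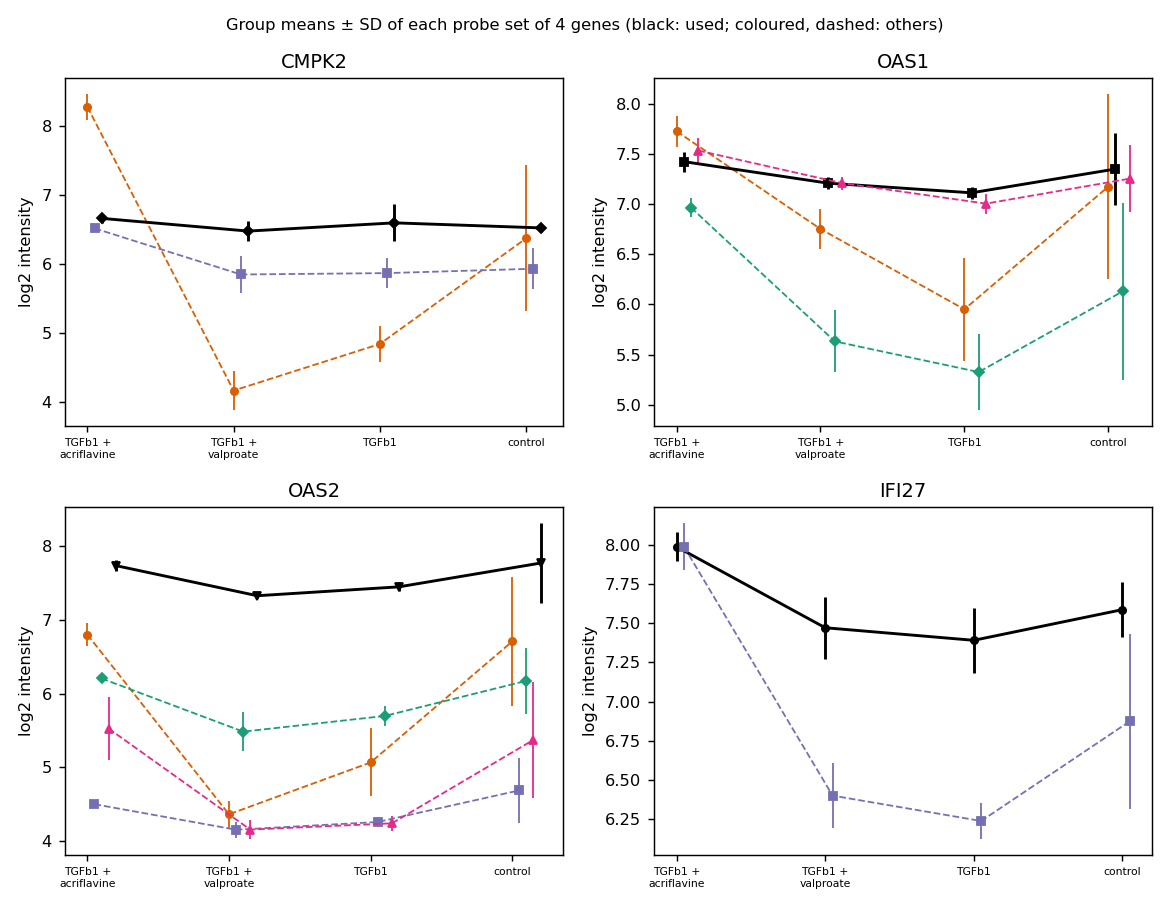
Group mean and SD (log2 intensity) of every probe set of CMPK2, OAS1, OAS2 and IFI27 in acriflavine, valproate, TGFb1 and control arrays, with the probe set used in black. At least 1 other probe set of each gene, in colour, differs more between acriflavine and TGFb1 arrays than the one used, as for CMPK2, where one differed by 3.43.

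The genes that act before the interferon-stimulated genes were read from a list of 42 interferons, receptors, kinases, transcription factors, sensors and negative regulators, of which 37 were measured and 26 tested. In TGFb1 against control 7 fell, 0 rose and 19 did not pass by limma, where 9.97% of all genes fell and 8.39% rose, and 1 was higher at an unadjusted p under 0.05. In acriflavine against TGFb1 12 rose, 2 fell and 12 did not pass, where 24.5% of all genes rose and 19.1% fell. In valproate against TGFb1 6 rose, 3 fell and 17 did not pass, where 15.1% of all genes rose and 16.2% fell. The rises for valproate lay somewhat above and the falls somewhat below those shares, and no result is read from these valproate counts. RIGI, the sensor of short double-stranded RNA, differed by -1.21 ± 0.153 (adjusted p = 8.31e-05) for TGFb1 against control and by 1.44 ± 0.166 (adjusted p = 1.33e-05) for acriflavine against TGFb1. DHX58, a relative of RIGI that modulates it, fell in TGFb1 below control with -0.90 ± 0.151 (adjusted p = 0.000890), and STAT3 with -0.79 ± 0.109 (adjusted p = 0.000171). STING1, the adaptor for sensing of cytosolic DNA, rose with 1.24 ± 0.129 (adjusted p = 5.90e-06) in acriflavine over TGFb1 arrays, and IRF3, a factor that sensing of viral RNA and DNA activates, rose with 1.02 ± 0.150 (adjusted p = 0.000107). IRF3 did not pass for TGFb1 against control, at 0.18, or for valproate against TGFb1, at -0.23.

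In valproate over TGFb1 arrays SOCS1, an inhibitor of JAK kinases, fell with -0.90 ± 0.121 (adjusted p = 8.43e-05), and CGAS, the sensor of cytosolic DNA, with -0.72 ± 0.0820 (adjusted p = 2.41e-05). IFNAR2, a chain of the receptor for interferon alpha and beta, rose with 0.67 ± 0.107 (adjusted p = 0.000319). Among the interferons themselves, IFNB1 had 4.15, 4.20 and 4.33 in acriflavine arrays, 3.97, 4.21 and 4.29 in valproate arrays, 4.25, 4.31, 4.20 and 3.76 in TGFb1 arrays, and 4.11, 4.19, 4.22 and 4.05 in control arrays. These values did not part the groups. IFNL1, an interferon lambda, lay below the brightness limit and had 8.81, 8.67 and 8.42 in acriflavine arrays, 5.62, 5.57 and 5.87 in valproate arrays, 6.20, 5.75, 6.11 and 5.70 in TGFb1 arrays, and 6.88, 6.69, 6.84 and 6.80 in control arrays. All acriflavine arrays were above all others, and in the fit without the limit acriflavine against TGFb1 gave 2.69 ± 0.132 (adjusted p = 7.59e-09) by limma. It was singled out after its values were seen. IFNLR1, a chain of its receptor, was also below the limit and had 7.31, 7.21 and 7.30 in acriflavine arrays, 7.65, 7.23 and 7.37 in valproate arrays, 5.88, 5.49, 5.75 and 6.27 in TGFb1 arrays, and 6.78, 6.61, 6.65 and 7.07 in control arrays. The arrays of both drug groups lay above all others, and all TGFb1 arrays lay below all control arrays. In the same fit IFNLR1 rose with 1.42 ± 0.160 (adjusted p = 1.16e-05) for acriflavine and 1.57 ± 0.160 (adjusted p = 7.93e-06) for valproate against TGFb1, and fell with -0.93 ± 0.149 (adjusted p = 0.000725) for TGFb1 against control. Its values too were seen before it was described.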

How the data were processed

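The values deposited by the authors are log2 intensities of Affymetrix arrays, made with RMA in the R package affy 1.44.0, per the submitters' processing notes. RMA makes the arrays alike in distribution, so a shift of most genes would be removed. Per the labels' protocols, 200 ng of RNA entered each labelling. Which arrays were normalised together is not given in the sources used here. The table held 49193 probe sets with 0 missing values, of which 44898 named 1 gene, 1825 several and 2470 none in the platform annotation. Symbols were checked against RefSeq, which matched 44871 probe sets and changed 0.

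For each of 18129 genes the brightest probe set on average over 14 arrays was used, and the dimmest 40% (7252 genes) were left out. Models with 1 mean per group over all arrays were fitted by lmFit and eBayes of limma 3.58.1 (R 4.3.3), and p was adjusted by Benjamini-Hochberg over 10877 genes in each of 6 comparisons. The fit was tested on simulated data. Members, lists and rules were chosen with earlier results of these data known. Genes given in full are the up to 4 largest rises and falls that passed in each comparison and 1 gene per role that did not pass, and of the pathway list the up to 3 largest changes plus IRF3, while 1 further gene of the rule is not reported here.

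Same-numbered TGFb1 and control arrays deviated together (correlations of 0.387, 0.359, 0.543 and 0.705), so the blocked value is given where it changes a call. With replicates 1 to 3 alone these were -0.258, 0.151 and 0.589. Alternatives were other brightness limits, the mean of probe sets, no _x_at probe sets, other scalings, another variance model, fits of both groups alone, the block, a batch term for the replicates 4, and arrays left out. No 2 arrays held identical values. Plots used matplotlib 3.10.9 under Python 3.11.15.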

Additional observations from a re-analysis of the deposited data

Results flagged for a closer look

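Of 56 sets of 4 arrays checked (28 genes in the TGFb1 and in the control group), 8 held an array that lay far from the other 3 by Dixon's test, where chance gives about 2.8. Of these, 5 were control replicate 4 and 2 were TGFb1 replicate 4. Control replicate 4 was high for UBE2L6 (10.9, against 10.0 to 10.1 in the other control arrays), IFIH1 (10.5, against 9.48 to 9.61), DDX60 (9.96, against 8.54 to 8.72), XAF1 (9.78, against 7.70 to 8.02) and PARP14 (11.7, against 10.7 to 10.8). TGFb1 replicate 4 was low for IFI35 (9.97, against 10.4 to 10.5 in the other TGFb1 arrays) and IRF7 (9.17, against 9.91 to 9.97). TGFb1 replicate 2 was high for IFI27 (7.70, against 7.26 to 7.32). Without control replicate 4 the difference for TGFb1 against control was -0.70 for UBE2L6, -1.17 for IFIH1, -0.76 for DDX60, -0.41 for XAF1 and -0.95 for PARP14, and of these DDX60 and XAF1 did not pass. Without TGFb1 replicate 4 it was -0.70 for IFI35, which passed, and -0.10 for IRF7, which did not. Without TGFb1 replicate 2 it was -0.30 for IFI27, which did not pass.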

How the results depend on the processing

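Over 4104 values of single genes under an alternative, 3859 kept their direction and their side of the threshold, 116 lost and 129 gained a call, and 0 reversed a call. The 19 falls in TGFb1 below control ranged from 13 to 22 over the alternatives, the 20 rises in acriflavine over TGFb1 from 14 to 24, the 18 lower genes in valproate against control from 13 to 19 and the 15 higher genes in acriflavine against valproate from 11 to 21. With single arrays left out these were 17 to 21, 19 to 23, 16 to 19 and 14 to 19. The smaller counts moved more. For valproate over TGFb1 the 5 rises were 3 with the dimmest 60% left out, 3 in a fit of both groups only, 10 with the replicate block, 10 without both replicates 4, 10 with a batch term for them and 2 to 6 without single arrays. The 3 falls were 5 without both replicates 4 and 1 to 4 without single arrays. For acriflavine against control the 3 higher genes were 5 without a brightness limit, 1 with the dimmest 60% left out, 5 with the mean of probe sets, 5 in a fit of both groups only, 7 with the replicate block, 11 without both replicates 4, 7 with the batch term and 2 to 7 without single arrays. For valproate against control the 0 higher genes were 3 with the replicate block, 3 without both replicates 4, 3 with the batch term and 0 to 3 without single arrays. For acriflavine against valproate the 3 lower genes were 1 to 4 without single arrays. A limit that leaves out more genes tests fewer members (17 at 60%), and no limit tests all 36 measured ones. The 5 higher genes without a limit for acriflavine against control include OAS3 and EPSTI1, which lie below it. The cause of the other moves was not tested. Outside TGFb1 and control the replicate numbers did not pair the samples by the rule used, since not every correlation was over 0.1, so the block there is given here as counts. The replicate block changed the number of genes called among all 10877 to 3148 for TGFb1 against control, against 1997 without it.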
